A study of Sus scrofa with 10 samples.

Results

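The genes described here act at the entry of cholesterol into steroid synthesis, and they were examined in the ovaries of 10 gilts. They are SCARB1, TSPO, STAR, CYP11A1, FDX1 and FDXR. They were chosen by name for their place in the pathway, though with earlier results of these data known. Each symbol was matched to a protein-coding locus of the deposited table, with the largest summed count deciding between loci of the same name, and all 6 were found among 19972 protein-coding loci and 43499 loci of any kind. The 5 gilts of the rpFSH treatment group received recombinant pig follicle-stimulating hormone (rpFSH, made in Chinese hamster ovary cells according to the methods) at 1000 IU per pig, and the 5 gilts of the control group received saline in an equal volume. All gilts shared a genetic background and a birth date, and all had been fed altrenogest, a progestin that holds back oestrus, at 20 mg daily over 18 days from an age of 210 days. Feeding was stopped for 2 days before the injection, and at an age of 234 days the ovaries were collected, freed of their surface follicles and frozen. Each pig gave 1 library. The samples were therefore whole ovaries that had lost their surface follicles, with luteal, stromal, vascular and other tissue in unknown proportion.

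Steroid-producing cells take up cholesterol from lipoproteins, move it across the mitochondrial membranes and cut off its side chain on the inner membrane, which gives pregnenolone, the precursor of the other steroids. Electrons for the cut come from NADPH through a flavoprotein reductase and a small iron-sulphur protein. In the ovary this machinery is known to be most abundant in the corpus luteum, which secretes progesterone, and is present at lower levels in theca and granulosa cells of growing follicles.

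The libraries held between 64873797 and 75114003 counts, so that 3 counts, taken as the smallest number told from 0, corresponded to 0.0399 to 0.0462 CPM (counts scaled to the library total). All 6 genes lay above this floor in every pig, the lowest being TSPO with 161 counts. This limit covers counting error only. Cell markers of the ovary were detected in all 10 libraries, with FSHR (granulosa cells) at 0.375 to 7.02 FPKM, INSL3 (theca cells) at 0.351 to 181 FPKM and ZP3 (oocytes) at 0.592 to 5.72 FPKM. FPKM is the number of fragments scaled to transcript length and to the mapped fragments of the library, and is used below wherever levels of different genes are compared.

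Most of these genes differed far more between pigs of the same group than between the groups. STAR, CYP11A1 and SCARB1 were very high in control replicate 2 and in rpFSH replicates 1 and 4 and lower in the other 7 pigs. FDX1 and FDXR were highest in rpFSH replicate 1 and control replicate 2, and TSPO did not share this pattern. None of the 6 genes differed between the groups beyond the spread between pigs. Whether a low level means fewer cells of a type or less RNA per cell cannot be told apart in such bulk samples.

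**Figure D1:**
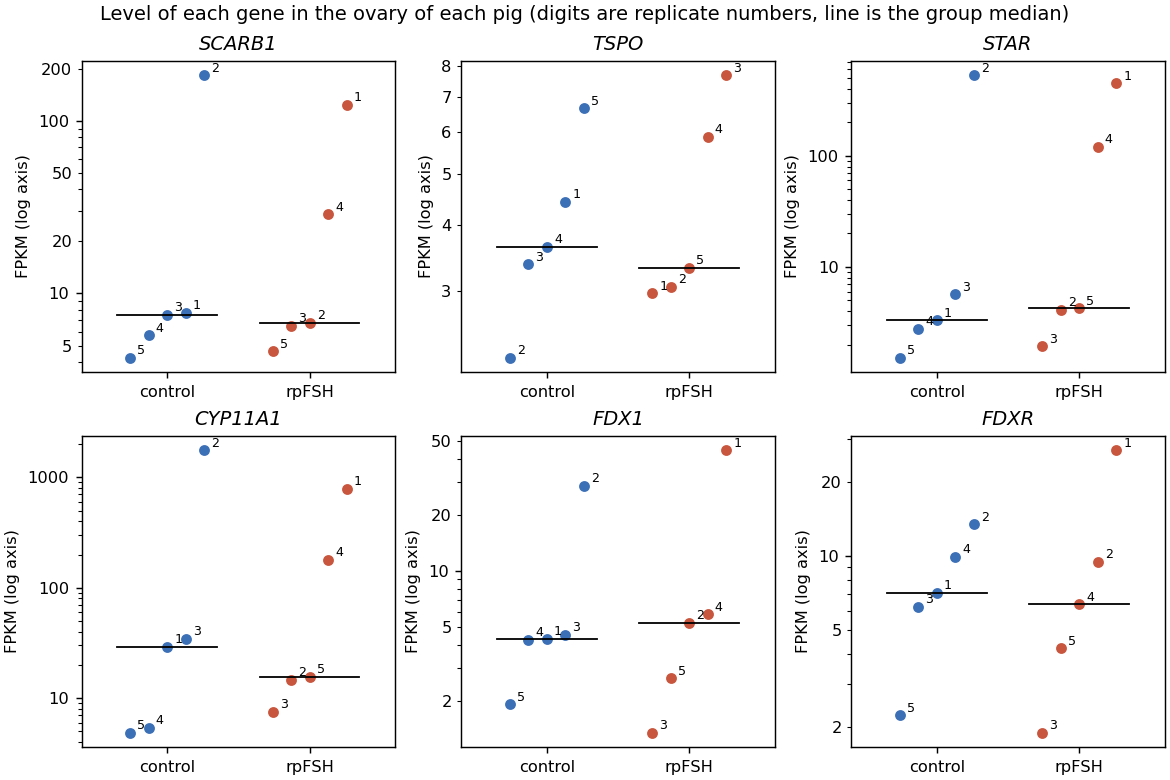
FPKM of the 6 genes (vertical log axes, each with its own range) in the 5 control and 5 rpFSH pigs; each point is a pig with its replicate number and the line is the group median. For STAR, control replicate 2 (532) and rpFSH replicates 1 (448) and 4 (121) stand above the other 7 pigs (1.52 to 5.67), whereas for TSPO all pigs lie between 2.24 and 7.68.

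SCARB1 encodes the receptor that takes up cholesteryl esters from high-density lipoprotein. Its locus (MSTRG.10612) lies at chr14:28301294-28393555 on the plus strand of Sscrofa11.1. In the control group SCARB1 was at 7.73, 183, 7.51, 5.74 and 4.25 FPKM in replicates 1 to 5, and in the rpFSH treatment group it was at 123, 6.78, 6.49, 28.8 and 4.64 FPKM. Control replicate 2 and rpFSH replicates 1 and 4 were high, the other 7 pigs lay close together, and the groups overlapped. The group means were 41.7 ± 79.1 and 34.0 ± 50.9 FPKM (SD, n = 5 pigs per group, exact two-sided permutation test, p = 0.833), and the medians were 7.51 and 6.78 FPKM.

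TSPO is a cholesterol-binding protein of the outer mitochondrial membrane whose part in import is debated. Its locus (MSTRG.24509) lies at chr5:5723190-5735131 on the minus strand. TSPO was at 4.43, 2.24, 3.37, 3.64 and 6.65 FPKM in control replicates 1 to 5 and at 2.97, 3.06, 7.68, 5.87 and 3.32 FPKM in rpFSH replicates 1 to 5. The highest pigs were rpFSH replicate 3, control replicate 5 and rpFSH replicate 4, and the lowest was control replicate 2, the pig with the most STAR. The group means were 4.07 ± 1.64 and 4.58 ± 2.11 FPKM (SD, n = 5 pigs per group, exact two-sided permutation test, p = 0.706).

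STAR carries cholesterol from the outer to the inner mitochondrial membrane, the step that is regulated acutely by gonadotropins. Its locus (MSTRG.13120) lies at chr15:48377513-48388326 on the plus strand. STAR was at 3.30, 532, 5.67, 2.78 and 1.52 FPKM in control replicates 1 to 5 and at 448, 4.09, 1.93, 121 and 4.23 FPKM in rpFSH replicates 1 to 5. The same 3 pigs as for SCARB1 were high, and no other pig came near them. The group means were 109 ± 236 and 116 ± 193 FPKM (SD, n = 5 pigs per group, exact two-sided permutation test, p = 0.857), against medians of 3.30 and 4.23 FPKM.

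CYP11A1 is the cholesterol side-chain cleavage enzyme, which forms pregnenolone. Its locus (MSTRG.31092) lies at chr7:59175820-59188720 on the plus strand. CYP11A1 was at 29.3, 1758, 34.4, 5.37 and 4.85 FPKM in control replicates 1 to 5 and at 787, 14.7, 7.48, 178 and 15.5 FPKM in rpFSH replicates 1 to 5. The order of the 3 high pigs was that of STAR and SCARB1, and among the low pigs control replicates 1 and 3 stood above the rest. The group means were 366 ± 778 and 201 ± 336 FPKM (SD, n = 5 pigs per group, exact two-sided permutation test, p = 0.802), and the medians were 29.3 and 15.5 FPKM.

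In the pigs where CYP11A1 and STAR were highest they were among the most abundant mRNAs of the ovary. CYP11A1 ranked 4th by FPKM among protein-coding loci in control replicate 2, 3rd in rpFSH replicate 1 and 35th in rpFSH replicate 4. In the other pigs it ranked between 221st (control replicate 3) and 4187th (control replicate 5). STAR ranked 11th, 8th and 58th in these pigs, and between 3073rd and 10356th in the other 7. SCARB1 ranked 40th, 59th and 328th in the 3 pigs. In control replicate 2 the loci of STAR, CYP11A1 and SCARB1 took 0.367, 0.414 and 0.331% of all counts.

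FDX1 is the ferredoxin that hands electrons to CYP11A1. Its locus (MSTRG.34371) lies at chr9:38371958-38401647 on the plus strand. FDX1 was at 4.31, 28.7, 4.53, 4.26 and 1.92 FPKM in control replicates 1 to 5 and at 44.4, 5.25, 1.34, 5.84 and 2.64 FPKM in rpFSH replicates 1 to 5. Here rpFSH replicate 1 exceeded control replicate 2, and rpFSH replicate 4, though ranked next, lay within 1 FPKM of rpFSH replicate 2. The group means were 8.75 ± 11.2 and 11.9 ± 18.3 FPKM (SD, n = 5 pigs per group, exact two-sided permutation test, p = 0.722).

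FDXR is the reductase that loads FDX1 with electrons from NADPH. Its locus (MSTRG.5785) lies at chr12:6372009-6383546 on the plus strand. FDXR was at 7.09, 13.5, 6.24, 9.93 and 2.24 FPKM in control replicates 1 to 5 and at 27.1, 9.47, 1.90, 6.35 and 4.21 FPKM in rpFSH replicates 1 to 5. The top pigs were again rpFSH replicate 1 and control replicate 2, whereas rpFSH replicate 4 lay in the middle of the 10 pigs, and the lowest were rpFSH replicate 3 and control replicate 5. The group means were 7.80 ± 4.21 and 9.80 ± 10.0 FPKM (SD, n = 5 pigs per group, exact two-sided permutation test, p = 0.810).

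Set against the median of the 10 pigs, the excess in the high pigs became smaller along the series STAR, CYP11A1, SCARB1, FDX1 and FDXR. In control replicate 2 STAR was 128 times, CYP11A1 78.4 times, SCARB1 25.6 times, FDX1 6.50 times and FDXR 2.01 times the median. The corresponding multiples in rpFSH replicate 1 were 108, 35.1, 17.3, 10.1 and 4.03. In rpFSH replicate 4 they were 29.0, 7.95, 4.03, 1.32 and 0.945, so that the electron carriers were near the median in a pig whose STAR was far above it. TSPO was 0.640, 0.848 and 1.67 times its median in these pigs. From the lowest to the highest pig, STAR spanned 349-fold, CYP11A1 362-fold, SCARB1 43.1-fold, FDX1 33.0-fold, FDXR 14.2-fold and TSPO 3.43-fold. By the SD of log2 (FPKM + 1) over the pigs, STAR and CYP11A1 ranked 3rd and 4th of the 15170 protein-coding loci that averaged 0.1 FPKM or more, SCARB1 19th, FDX1 84th, FDXR 300th and TSPO 2704th.

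**Figure D2:**
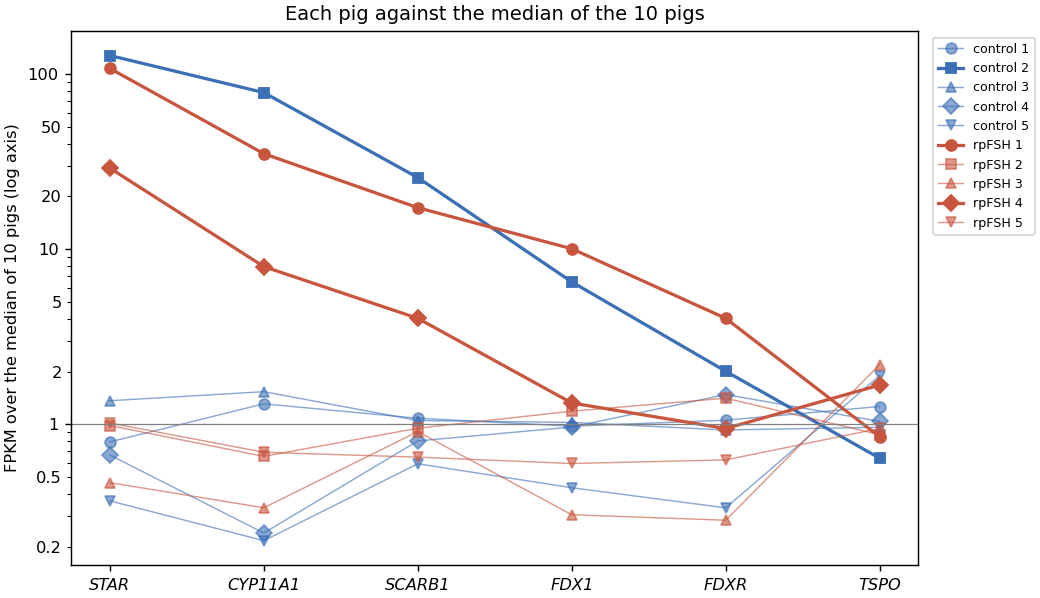
FPKM of each gene in each pig divided by the median of the 10 pigs (vertical log axis), with a line for each pig and thick lines for control replicate 2 and rpFSH replicates 1 and 4, drawn thick because their STAR was over 100 FPKM. The thick lines fall from 128, 108 and 29.0 at STAR to 2.01, 4.03 and 0.945 at FDXR and lie among the other pigs at TSPO.

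Since partners of the same enzyme system were measured in the same libraries, their ratio within a pig could be compared without regard to library scaling. By FPKM, CYP11A1 exceeded STAR in all 10 pigs. This order depends on the scaling to transcript length. By counts STAR was above CYP11A1 in control replicate 4 (1458 against 963), rpFSH replicate 1 (231977 against 139119) and rpFSH replicate 4 (59424 against 29961). The CYP11A1 to STAR ratio of FPKM was 8.89, 3.31, 6.07, 1.93 and 3.19 in control replicates 1 to 5 and 1.76, 3.59, 3.87, 1.48 and 3.66 in rpFSH replicates 1 to 5. The lowest ratios were those of rpFSH replicates 4 and 1 and the highest those of control replicates 1 and 3. On the log2 scale the ratio was 2.02 ± 0.86 in control pigs and 1.41 ± 0.67 in rpFSH pigs, a difference of -0.61 (SD, n = 5 pigs per group, exact two-sided permutation test, p = 0.278, 0.833 after Benjamini-Hochberg adjustment over 3 ratios).

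By FPKM, FDX1 exceeded FDXR in only 2 of the 10 pigs, control replicate 2 and rpFSH replicate 1. By counts FDX1 was above FDXR in all 10 pigs, for example with 3003 against 2053 in control replicate 1. Which of them is the higher therefore depends on the scaling to transcript length. The FDX1 to FDXR ratio was 0.608, 2.13, 0.726, 0.429 and 0.856 in control replicates 1 to 5 and 1.64, 0.554, 0.707, 0.920 and 0.627 in rpFSH replicates 1 to 5. The groups differed by 0.02 in the mean log2 ratio (exact two-sided permutation test, n = 5 pigs per group, p = 0.960, adjusted p = 0.960). The CYP11A1 to FDX1 ratio varied more, with 6.81, 61.2, 7.61, 1.26 and 2.53 in control replicates 1 to 5 and 17.7, 2.80, 5.56, 30.5 and 5.88 in rpFSH replicates 1 to 5. It was highest in control replicate 2, rpFSH replicate 4 and rpFSH replicate 1, and the group difference was 0.46 on the log2 scale (exact two-sided permutation test, n = 5 pigs per group, p = 0.706, adjusted p = 0.960).

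**Figure D3:**
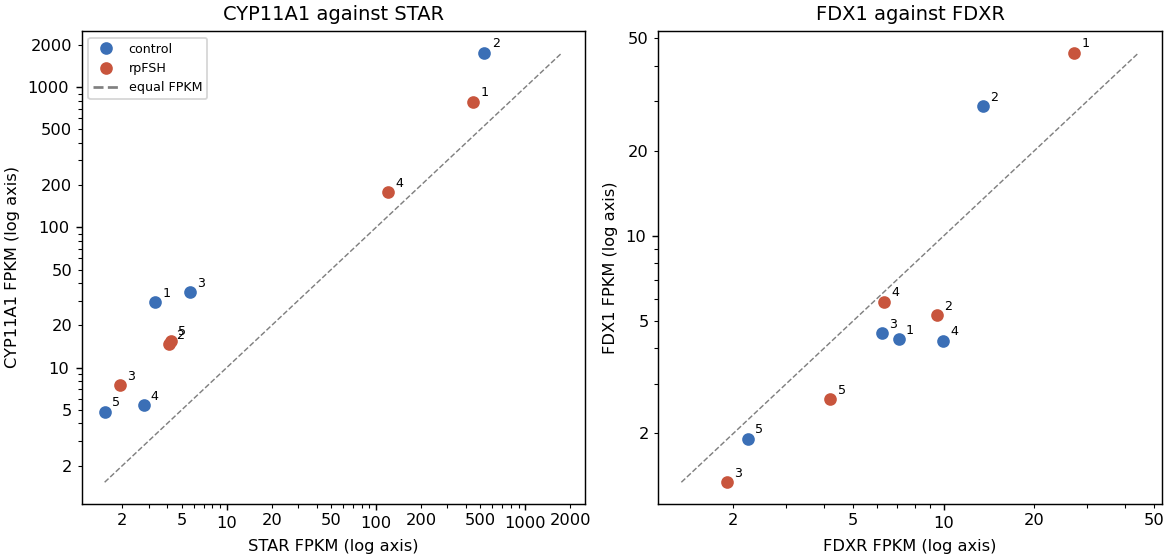
CYP11A1 against STAR (left) and FDX1 against FDXR (right) in FPKM, both axes logarithmic, 1 point per pig with its replicate number, and a dashed line of equal FPKM. All 10 pigs lie above the line on the left, and only control replicate 2 and rpFSH replicate 1 lie above it on the right. The position against this line depends on the scaling of FPKM to transcript length.

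Because 3 pigs stood apart, no correlation between these genes was tested over all 10 pigs, and the genes were compared within the 7 pigs with STAR under 100 FPKM, on log2 (FPKM + 1). Of the 15 pairs of genes, 10 had a positive Pearson's r, and the 5 pairs with TSPO were all negative. FDX1 and FDXR had r = 0.958 (exact permutation test, n = 7, p = 0.00278, 0.0417 after adjustment over the 15 pairs) and rho = 0.75 (exact permutation test, p = 0.0663, adjusted p = 0.199). Without the 2 pigs farthest from the median FDX1, r was 0.824 (exact permutation test, n = 5, p = 0.1), and with 5 pigs no single pair could pass, the smallest p being 0.00833 and 0.125 after adjustment over 15 pairs. STAR and CYP11A1 had r = 0.820 (exact permutation test, n = 7, p = 0.0282, adjusted p = 0.0845) and rho = 0.857 (exact permutation test, p = 0.0238, adjusted p = 0.199), with r = 0.583 in the 5 pigs left after the same step. STAR and TSPO had r = -0.865 (exact permutation test, n = 7, p = 0.0125, adjusted p = 0.0826) and rho = -0.786 (exact permutation test, p = 0.0480, adjusted p = 0.199), with r = -0.893 in the remaining 5 pigs. The negative sign was less firm for the pairs of TSPO with FDX1 and FDXR. By the same step r went from -0.854 to -0.011 for FDX1 and from -0.841 to 0.031 for FDXR. For CYP11A1 r stayed negative, from -0.525 to -0.599, and for SCARB1 it was weak in both, at -0.235 and -0.111. By Spearman's rho 0 of the 15 pairs passed after adjustment.

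The comparison of the groups asked whether the ovaries of pigs given rpFSH held more or less mRNA of these genes, and was made on the deposited counts with edgeR's quasi-likelihood test over 15170 protein-coding loci. At an adjusted p under 0.05, 0 of the 6 genes and 0% of all loci passed. At an unadjusted P under 0.05 it was 0 of the 6 genes against 4.76% of all loci (1.54% higher and 3.22% lower in the rpFSH treatment group), and with a log2 change beyond 1 in either direction as well 0 against 3.09%. In 0 of the 6 genes did the groups not overlap, which was the case for 0.626% of all loci.

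The changes were small beside their errors, and their sign differed between genes. On the log2 scale, rpFSH over control, the edgeR change of STAR was 0.14 (approximate SE 1.87). That of CYP11A1 was -0.82 (SE 1.74) and that of SCARB1 -0.24 (SE 1.27). FDX1 and FDXR, the electron carriers, gave 0.49 (SE 0.99) and 0.38 (SE 0.65). The precision was best for TSPO, at 0.25 (SE 0.37). All 6 adjusted p by edgeR with the Benjamini-Hochberg method were 1.00. With errors of this size, even severalfold changes of STAR, CYP11A1 or SCARB1 were not detectable.

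A single pig decided the direction of several of these values. Without control replicate 2 the log2 change became 5.16 for STAR, 3.47 for CYP11A1 and 2.48 for SCARB1, each with an unadjusted edgeR P under 0.05 (5.26% of all loci in that fit) and an adjusted p of 0.908. Without rpFSH replicate 1 the changes became -1.66, -2.69 and -1.75, and those of FDX1 and FDXR became -1.13 and -0.42. The change of TSPO stayed between -0.03 and 0.49 whichever pig was left out.

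**Figure D4:**
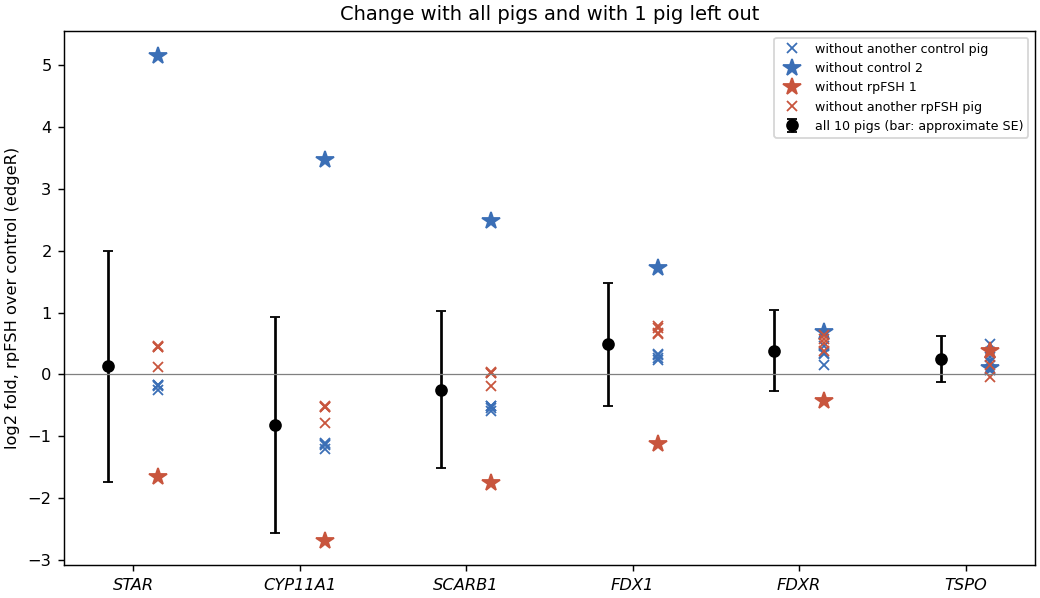
Log2 fold change, rpFSH over control, by edgeR for each gene with all 10 pigs (black, bar of 1 approximate SE to each side) and with each pig left out in turn (crosses and stars, coloured by the group of the pig left out). The stars for control replicate 2 reach 5.16 for STAR and those for rpFSH replicate 1 reach -2.69 for CYP11A1, whereas the values for TSPO lie between -0.03 and 0.49.

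No difference between the groups was found for genes that supply cholesterol, and several were highest in the same pigs as STAR. Of 18 genes for the uptake, storage and trafficking of cholesterol, 0 rose and 0 fell at an unadjusted edgeR P under 0.05, against 4.76% of all loci. Their median log2 change was -0.09 beside -0.01 over all loci. In 5 of the 18 genes, among them NPC1, NPC2, SOAT1 and STARD4, the top 3 pigs were control replicate 2 and rpFSH replicates 1 and 4, as in 4 of the 6 genes described here (STAR, CYP11A1, SCARB1 and FDX1). Over all tested loci this held for 640, or 4.22%, and the count was made after the values had been seen. NPC1 and NPC2, which release cholesterol from lysosomes, reached 73.4 and 96.3 FPKM in control replicate 2 and 41.3 and 56.5 FPKM in rpFSH replicate 1. SOAT1, which esterifies cholesterol, and STARD4, a carrier of cholesterol in the cytosol, were likewise chosen after their values were seen. They reached 22.8 and 18.9 FPKM in control replicate 2. In rpFSH replicate 4 NPC1, SOAT1 and STARD4 were at 13.1, 4.31 and 2.57 FPKM, against at most 10.6, 3.61 and 1.85 FPKM outside the top 3 pigs. NPC2 was at 54.0 FPKM there, against at most 26.8 FPKM outside the top 3. The apolipoprotein gene APOE, the most abundant of the list by mean, followed another order, with its highest level in rpFSH replicate 3 (84.2 FPKM) and its lowest in rpFSH replicate 1 (17.5 FPKM).

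Of 15 tested genes for proteins held to take part in mitochondrial import beside STAR and TSPO, 0 rose and 0 fell, against 4.76% of all loci. Their median log2 change was -0.02 beside -0.01 over all loci. SLC25A3, the phosphate carrier, was at 40.6 to 117 FPKM, and VDAC1, the anion channel of the outer membrane, at 12.2 to 60.5 FPKM. In 1 of the 15, ACSL4, a fatty acid ligase named here after its values were seen, the top 3 pigs were those of STAR, with 63.2 FPKM in control replicate 2, 33.8 FPKM in rpFSH replicate 1 and 13.2 FPKM in rpFSH replicate 4, against 3.69 to 5.94 FPKM in the others.

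Of 13 tested genes of mitochondrial electron transfer and its cofactors, ME3 alone had an unadjusted P under 0.05, against 4.76% of all loci. ME3, a mitochondrial malic enzyme that yields NADPH, was at 1.78, 2.16, 1.37, 2.48 and 0.994 FPKM in control replicates 1 to 5 and at 1.92, 3.84, 2.36, 2.84 and 2.96 FPKM in rpFSH replicates 1 to 5. The groups overlapped, and the edgeR log2 change of 0.74 (SE 0.27) had an adjusted p of 0.992. COX15 and HSCB, which serve haem A and iron-sulphur cluster assembly, had the top 3 pigs of STAR and were named after this had been seen.

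Of 13 tested genes for the steps after pregnenolone, 0 rose and 0 fell, against 4.76% of all loci. Their median log2 change was 0.40 beside -0.01 over all loci. HSD3B1, which turns pregnenolone into progesterone, was at 20.8, 333, 6.21, 6.20 and 1.24 FPKM in control replicates 1 to 5 and at 322, 5.72, 2.34, 129 and 8.39 FPKM in rpFSH replicates 1 to 5. Its high pigs were those of STAR, and its edgeR log2 change was 0.40 (SE 1.59, adjusted p = 1.00). CYB5A, cytochrome b5, was highest in rpFSH replicate 1 (137 FPKM), followed by control replicate 2 (60.6 FPKM) and rpFSH replicate 4 (53.6 FPKM). HSD17B4 and HSD17B7, named after their values were seen, had the same top 3 pigs. The enzymes of androgen and oestrogen synthesis were not among them: CYP17A1 was highest in control replicate 3 (41.5 FPKM), and CYP19A1 was at 0.110 FPKM in control replicate 2, its lowest pig, and at most 5.56 FPKM in any pig.

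Of 22 tested genes for regulators of steroid synthesis, 0 rose and 0 fell, against 4.76% of all loci. Their median log2 change was 0.16 beside -0.01 over all loci. In 0 of them were the top 3 pigs those of STAR, against 4.22% of all loci. NR5A2, a nuclear receptor that drives steroidogenic genes, was at 2.86, 23.9, 3.75, 10.9 and 2.24 FPKM in control replicates 1 to 5 and at 102, 22.5, 0.507, 9.69 and 6.38 FPKM in rpFSH replicates 1 to 5. It was highest in rpFSH replicate 1 and control replicate 2, but rpFSH replicate 4 lay below control replicate 4, and the edgeR log2 change was 1.74 (SE 1.12, adjusted p = 1.00). PRKAR1A, a regulatory subunit of protein kinase A, was at 14.0 to 38.0 FPKM in all pigs.

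**Figure D5:**
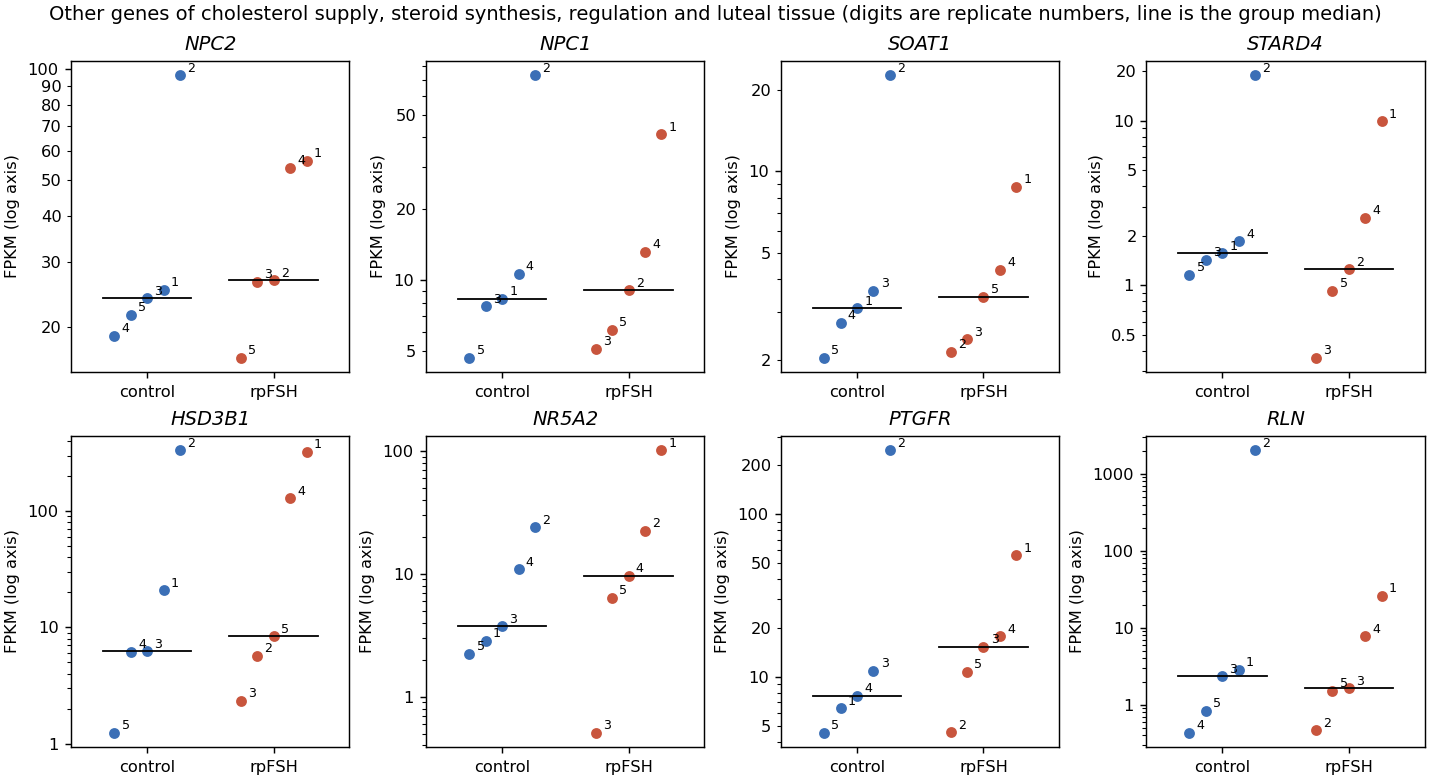
FPKM of 8 other genes (vertical log axes, each with its own range) in the 5 control and 5 rpFSH pigs, with replicate numbers and group medians as lines. In NPC2, NPC1, SOAT1, STARD4, HSD3B1, PTGFR and RLN the top 3 pigs are control replicate 2 and rpFSH replicates 1 and 4, and in NR5A2 rpFSH replicate 2 (22.5) stands above rpFSH replicate 4 (9.69).

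Several markers of luteal cells were highest in the pigs with high STAR. Of 10 tested luteal markers 6 had the same top 3 pigs (4.22% of all loci), namely HSD3B1, PTGFR, RLN, TIMP1, PGRMC1 and IDH1, whereas LHCGR, PRLR, LHX9 and BHLHE41 did not. The summed FPKM of the list was 148, 3738, 116, 98.1 and 93.6 in control replicates 1 to 5 and 2401, 120, 90.3, 642 and 385 in rpFSH replicates 1 to 5. The 3 pigs with high STAR had the highest sums, and rpFSH replicate 5, with STAR at 4.23 FPKM, came next through TIMP1 (306 FPKM). The high pigs were not alike in their luteal markers. RLN, which encodes the hormone relaxin and was chosen after its values were seen, was at 2032 FPKM in control replicate 2, 26.0 FPKM in rpFSH replicate 1 and 7.72 FPKM in rpFSH replicate 4, and at 0.431 to 2.85 FPKM elsewhere. PTGFR, the receptor for prostaglandin F2 alpha, was at 248, 56.0 and 17.8 FPKM in these pigs and at 4.53 to 15.4 FPKM elsewhere, and the protease inhibitor TIMP1 was at 751, 1795 and 395 FPKM. LHCGR, the receptor for luteinizing hormone, was at 2.74, 7.32 and 3.75 FPKM in these pigs and at 0.907 to 5.18 FPKM in the other 7.

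Markers of theca and granulosa cells did not follow the same order. The summed FPKM of the adrenal cortex list was highest in the same 3 pigs, though not every gene of that list followed them. The summed FPKM of 7 theca markers was 18.0 in control replicate 2, the lowest of all pigs, 50.3 in rpFSH replicate 1 and 76.4 in rpFSH replicate 4, against 33.6 to 264 in the other 7. INSL3, made by theca cells, was at 0.351, 17.1 and 30.5 FPKM in these pigs and at 2.79 to 181 FPKM elsewhere. Summed over 10 granulosa markers, the level was 60.9, 190 and 103 FPKM in these pigs and 58.6 to 353 FPKM elsewhere. The sum over the 5 genes listed for the adrenal cortex, not all of them specific to it, was 47.8, 56.1 and 15.4 FPKM in these pigs. It was 4.12 to 10.1 FPKM elsewhere. Only 2 of the 5 genes, HSD11B2 and MRAP, had the top 3 pigs of STAR. In rpFSH replicate 1, HSD11B2 alone gave 29.2 of the 56.1 FPKM. CYP21A2, the adrenal 21-hydroxylase, was at 0.223 to 5.81 FPKM and highest in control replicate 5. The melanocortin receptor MC2R, named after its values were seen, was at most 0.837 FPKM in any pig. Markers of oviduct-type epithelium also differed between pigs, with sums of 78.0 in control replicate 2 and 152 in control replicate 5 against 7.35 to 20.3 in the other 8, and FOXJ1, a regulator of cilia, was at 5.82 and 14.1 FPKM in those pigs and at most 0.212 FPKM in the others. All 10 of its tested genes had a lower level in the rpFSH treatment group at an unadjusted edgeR P under 0.05, against 3.22% of all loci (adjusted p from 0.992 to 1.00). The part of luteal or other tissue in the levels of the 6 genes was not tested. Without control replicates 2 and 5 together the log2 change was 4.91 for STAR, 3.15 for CYP11A1, 2.33 for SCARB1, 1.49 for FDX1, 0.40 for FDXR and 0.35 for TSPO. In that edgeR fit 0 of 6 adjusted p were under 0.05, and 1 of 6 unadjusted P was, beside 6.82% of all loci. Control replicate 2 was the only control pig with high STAR, CYP11A1 and SCARB1, whereas rpFSH replicates 1 and 4 were kept. Large positive changes of these genes follow from leaving it out and say nothing of rpFSH.

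The loci whose levels were most alike over the 10 pigs were sought by Pearson's r of log2 (FPKM + 1) among 11314 other protein-coding loci that averaged 1 FPKM or more, as a description in which the 3 high pigs carry most of the weight. For STAR they included SULT1C3 (r = 0.985) and PAQR9 (r = 0.981). For CYP11A1 they were CCDC126 (r = 0.984), MRAP (r = 0.973) and STAR itself (r = 0.973). SCARB1 was most like PAQR9 (r = 0.994), a locus annotated as PDZK1 interacting protein 1 (r = 0.991) and IBSP (r = 0.990). PAQR9, a member of the progestin and adipoQ receptor family, was at 21.8, 20.0 and 3.51 FPKM in control replicate 2 and rpFSH replicates 1 and 4 and at 0.0172 to 0.185 FPKM elsewhere. FDX1 was most like HAO2 (r = 0.987), PDHX (r = 0.983) and FAM222A (r = 0.981), and FDXR was most like a locus shared by RAB29 and SLC41A1 (r = 0.994), COMMD6 (r = 0.974) and PIGH (r = 0.974). TSPO had a locus annotated as CUGBP Elav-like family member 2 (r = 0.947), ELMSAN1 (r = 0.925) and SFRP5 (r = 0.921). The number of loci with r over 0.95 was 27 for STAR, 25 for CYP11A1, 95 for SCARB1, 76 for FDX1, 9 for FDXR and 0 for TSPO.

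Other loci overlap some of these genes in the deposited table, and as it is not stated whether the counting used strand, reads from the shared stretches cannot be told apart. ASH2L, on the opposite strand, overlaps the 3′ end of STAR, and with 1141 to 2139 counts it came to 0.763 to 1.92% of the STAR count in the 3 high pigs and to 55.0 to 222% in the others. A locus not typed as protein-coding on the opposite strand within FDX1 (MSTRG.34373) held 32.0 to 93.9% as many counts as FDX1. Within CYP11A1 such a locus (MSTRG.31093) came to 1.84 to 14.7% of the CYP11A1 count. Within SCARB1, 4 loci not typed as protein-coding, 3 of them on the opposite strand, added up to 8.95 to 32.3% of the SCARB1 count. These percentages use the whole count of each overlapping locus, and ASH2L reaches beyond STAR, so they are not the size of an error. How far shared reads affect the values, such as those of STAR in the 7 low pigs and of FDX1, was not tested.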

How the data were processed

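Ovary RNA of 5 control and 5 rpFSH pigs was analysed, with 1 library per pig and groups taken from the sample labels, which write the treatment as fpFSH and untreated. According to the methods rRNA was removed and strand-specific libraries were run on a HiSeq instrument, but in the labels poly(A) RNA was selected and run on a NovaSeq instrument. The submitters' processing notes name Bowtie 0.12.2, HISAT2 2.0, StringTie 1.3.0 and the build Sscrofa11.1. The authors deposited an FPKM, estimated with StringTie and Ballgown, and a whole-number count for each locus and pig; how the counts were made, and whether strand was used, is not given in the sources used here. In the methods, groups were compared with Ballgown. Here the deposited counts were tested with edgeR 4.0.16 (quasi-likelihood, TMM factors, two-sided, R 4.3.3) on the 15170 protein-coding loci that averaged 0.1 FPKM or more, with Benjamini-Hochberg adjustment over all of them and a call at an adjusted p under 0.05. The SE is approximate, the size of the change over the square root of its F statistic. FPKM was kept as deposited, and a pseudocount of 1 was added before log2. For FPKM and log2 ratios, an exact two-sided permutation test used all 252 ways to divide the 10 pigs. Correlations had been planned over 10 pigs with resampling; because the pigs fell into separate clusters they were computed over 7 pigs with all permutations.

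Alternatives were RLE and upper-quartile factors, DESeq2 1.42.0, limma 3.58.1 on log2 FPKM with a pseudocount of 1 or 0.1, other filters on low values, all locus types, the replicate number as a block, leaving out each pig, and leaving out control replicates 2 and 5. The genes, gene lists and naming rule were chosen with earlier results of these data known. Named genes are the 6 genes, the members of each pathway list with an unadjusted P under 0.05 or otherwise its 2 most abundant, preset cell markers and, for each of the 6 genes, the 3 loci most like it; others are said to be chosen after their values were seen. Of the listed markers CYP11B1, FOXL2, HSD17B1, CLDN5, PAX8 and MUC16 were not matched to a locus, and 1 gene that the rule names is not reported here. Listed symbols absent from the table were matched through tables of gene names and RefSeq identifiers. Some listed genes share their locus with another gene, among them AMH with SF3A2, INHBA with GLI3, MGARP with NDUFC1 and OVGP1 with WDR77. The values of such loci, and the marker sums that hold them, are not those of the listed gene alone. The edgeR, DESeq2 and limma fits were tested on simulated data with less spread between pigs than the 6 genes had. The permutation and correlation tests were not part of that simulation. Replicates are separate pigs, and between replicates no pair of libraries agreed within sampling noise. Sequences were not used here.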

Additional observations from a re-analysis of the deposited data

Results flagged for a closer look

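Within each group of 5 pigs, the highest and the lowest value of every gene and of every within-pig ratio was compared with its nearest neighbour by Dixon's gap test (critical value 0.71). Of 18 groups of values examined, 8 held a pig that stood apart, all of them at the upper end. The critical value gives about 1 in 20 for normally distributed values. The genes were compared as FPKM without a logarithm, so that this rate need not hold for them. In the control group it was replicate 2 each time, with 532 FPKM for STAR, 1758 FPKM for CYP11A1, 183 FPKM for SCARB1 and 28.7 FPKM for FDX1. In the rpFSH treatment group it was replicate 1 each time, with 448 FPKM for STAR, 787 FPKM for CYP11A1, 123 FPKM for SCARB1 and 44.4 FPKM for FDX1. The 4 genes were measured in the same libraries, so that these 8 values come from 2 pigs and are not independent. FDXR and TSPO had no such pig in either group.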

How the results depend on the processing

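Under every alternative 0 of the 6 genes had an adjusted p under 0.05, where DESeq2 gave no P to CYP11A1, SCARB1 and FDX1. The direction of their changes was less firm. With 1 pig left out, the edgeR log2 change ranged from -1.66 to 5.16 for STAR, -2.69 to 3.47 for CYP11A1, -1.75 to 2.48 for SCARB1, -1.13 to 1.71 for FDX1, -0.42 to 0.68 for FDXR and -0.0331 to 0.49 for TSPO. STAR also turned negative without control replicates 1, 3, 4 or 5 (-0.18, -0.17, -0.25 and -0.18), SCARB1 turned positive without rpFSH replicates 2, 3 or 5 (0.02, 0.02 and 0.04), and TSPO turned negative without rpFSH replicate 3 (-0.0331). Without control replicate 2, 3 genes had an unadjusted edgeR P under 0.05 (range 0 to 3 over the pigs) beside 5.26% of all loci. Without control replicates 2 and 5 together 1 had, beside 1035 loci or 6.82%, with CYP11A1 at 3.15 and SCARB1 at 2.33. Control replicate 2, left out of both fits, was the only control pig with high STAR, CYP11A1 and SCARB1. By limma with a pseudocount of 1 or 0.1, STAR was at 0.98 and 1.07, CYP11A1 at 0.43 and 0.47 and SCARB1 at 0.27 and 0.29, with FDXR at 0.02 and -0.0012. The cause was not tested.

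The loci called at an adjusted p under 0.05 were 0 by edgeR (722 at an unadjusted P under 0.05), 86 by DESeq2 and 0 to 1 with 1 pig left out. The loci at an unadjusted P under 0.05 fell to 460 by limma and to 375 with a mean FPKM of at least 1, and were 560 to 798 with 1 pig left out. By medians the log2 ratio differed by 0.12 for CYP11A1 to STAR, -0.0387 for FDX1 to FDXR and -0.21 for CYP11A1 to FDX1, and with 1 pig left out the differences were -0.88 to -0.33, -0.23 to 0.37 and -0.12 to 1.28. With 2 pigs left out 0 correlations passed, against 1 with 7 pigs, but with 5 pigs no single pair can (smallest adjusted p by exact permutation 0.125), and FDX1 and FDXR kept r = 0.824.

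Pigs with the same replicate number did not deviate together (r from -0.413 to 0.111 for the 5 numbers), and no source says that the numbers pair animals. With the replicate number as a block, the changes were 1.65 for STAR, 1.36 for CYP11A1, 0.64 for SCARB1, -0.0045 for FDX1, 0.05 for FDXR and 0.22 for TSPO, and 370 loci had an unadjusted P under 0.05, with 0 after adjustment.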

Other observations

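The other marker lists gave the following counts at an unadjusted edgeR P under 0.05, with no adjusted p under 0.05, beside 1.54% of all loci higher and 3.22% lower. Of 10 luteal markers 2 were lower in the rpFSH treatment group, RLN and the prolactin receptor PRLR (edgeR log2 change -2.46, SE 0.86, adjusted p = 0.992). Of 7 theca markers 1 was higher, the scavenging chemokine receptor ACKR3 (0.77, SE 0.35, adjusted p = 1.00), and of 8 stromal markers 1 was lower, the proteoglycan LUM (-1.54, SE 0.53, adjusted p = 0.992). RLN, PRLR, ACKR3 and LUM were named after their values were seen. RLN was at 2032 FPKM in control replicate 2 and at most 26.0 FPKM in the rpFSH treatment group. Its medians were 2.33 FPKM in control and 1.63 FPKM in rpFSH pigs (exact two-sided permutation test of the means, n = 5 pigs per group, p = 0.810). PRLR was at 2.30, 4.29, 1.61, 0.0989 and 1.22 FPKM in control replicates 1 to 5 and at 0.0995, 0.368, 0.822, 0.173 and 0.138 FPKM in rpFSH replicates 1 to 5, so that it was highest in control replicate 2, whose STAR was highest too, and near its lowest in rpFSH replicate 1, whose STAR was almost as high. None of the 10 granulosa, 7 smooth muscle, 7 endothelial, 7 immune and 10 oocyte markers tested passed, and none of the 5 genes of the adrenal list.

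HSD11B2, which inactivates cortisol, and MRAP, an accessory protein of the melanocortin receptors, both from the adrenal list and HSD11B2 chosen after its values were seen, had the top 3 pigs of STAR. HSD11B2 was at 29.2 FPKM in rpFSH replicate 1, 4.56 FPKM in control replicate 2 and 1.35 FPKM in rpFSH replicate 4, and MRAP was at 13.9, 25.9 and 7.86 FPKM in these pigs.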
